A study of Mus musculus with 16 samples.

Results

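The 10 genes described here belong to the Notch pathway: the ligand gene Jag1, the receptor genes Notch1, Notch2 and Notch3, the glycosyltransferase gene Lfng, the Deltex genes Dtx1 and Dtx4, the transcription factor gene Rbpj, and the target genes Hes1 and Nrarp. They were taken by name from the 56748 genes measured by RNA-seq, and 10 of 10 were found, each as a single row. The set was chosen by the measured levels of these samples, since the fold changes of Jag1 and Dtx4 between the groups were in view. The differences of the 10 genes are therefore given as descriptions, and no p-value is printed for them. Where calls by adjusted p are counted below, they describe these genes and test nothing further. Jag1 and Dtx4 are set against the rest of the pathway by mouse line and genotype.

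The RNA came from memory CD4+ T cells sorted from the spleen as CD4+CD25low/-CD62L-CD44high cells. There were 16 samples from male mice, 4 in each of 4 groups: HP1α KO, WT littermates of the HP1α line, HP1γ KO and WT littermates of the HP1γ line. HP1α (gene Cbx5) and HP1γ (gene Cbx3) are chromatin proteins that bind methylated histone H3 lysine 9. HP1α KO mice (Hp1a-/-) carried an allele excised in every tissue by CMV-cre and were compared with Hp1a+/+ littermates. All HP1γ line mice were homozygous for the Hp1g flox allele, and the KO mice also carried Cd4-cre, so that the loss of HP1γ and the presence of Cre in T cells cannot be told apart in that line. Both lines had a mixed 129/Sv and C57BL/6 background, and the mice were 6 to 12 weeks old. The lines differ in breeding as well as in the targeted gene, and any difference in handling between them cannot be told apart from the line. The labels do not say whether the 4 samples of a group are separate animals, so p-values measure only the spread between these samples. Total estimated counts ran from 26694045 to 40199637 per sample, and no replicate pair of the 24 was a duplicate. Within each line the targeted gene was lower in KO than in WT samples, without overlap. Cbx5 had 23.0 to 29.0 CPM (read counts normalised to a library of 1000000) in HP1α KO samples against 33.8 to 54.0 in their WT littermates, and Cbx3 had 45.9 to 50.3 CPM in HP1γ KO samples against 73.4 to 92.5. Across the lines the level of Cbx5 did not tell HP1α KO samples apart, since it was 20.1 to 29.8 CPM in HP1γ KO and 27.1 to 37.4 CPM in HP1γ line WT samples. In the HP1γ line samples 1 and 2, and samples 3 and 4, of each genotype were closer to each other over all genes (chi-square per gene 10.4 to 19.1) than to the rest of their group (25.7 to 41.0). The labels name no such sets.

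Notch signalling passes between touching cells. A ligand of the Jagged or Delta-like type on one cell binds a Notch receptor on another, the receptor is cut by an ADAM protease and then by γ-secretase, and the freed intracellular domain moves to the nucleus and binds RBPJ with a Mastermind coactivator. In T cells the pathway is known for fixing the T lineage in the thymus and for its part in helper cell differentiation, and Deltex proteins are ubiquitin ligases that bind the receptor's intracellular domain.

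RBPJ binds a core of the letters TGGGAA. The 250 bases before the transcription start are shown for Jag1, which had the largest fold difference of the 10 genes between KO cells of the lines, and for Notch2 and Rbpj, which moved with it between the lines, and for Lfng, which moved the other way. They are RefSeq sequences of GRCm38.p6, 5′ to 3′ on the strand of the gene, with TGGGAA and its reverse complement TTCCCA in capitals. The Jag1 stretch lies at chr2:137116521-137116770 on the minus strand, the Notch2 stretch at chr3:98013288-98013537, the Rbpj stretch at chr5:53590096-53590345 and the Lfng stretch at chr5:140607091-140607340, these 3 on the plus strand.
Jag1: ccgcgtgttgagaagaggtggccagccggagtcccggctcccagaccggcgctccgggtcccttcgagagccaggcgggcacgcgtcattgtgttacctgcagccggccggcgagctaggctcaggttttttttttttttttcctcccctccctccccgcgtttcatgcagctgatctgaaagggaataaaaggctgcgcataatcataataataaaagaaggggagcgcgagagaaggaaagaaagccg
Notch2: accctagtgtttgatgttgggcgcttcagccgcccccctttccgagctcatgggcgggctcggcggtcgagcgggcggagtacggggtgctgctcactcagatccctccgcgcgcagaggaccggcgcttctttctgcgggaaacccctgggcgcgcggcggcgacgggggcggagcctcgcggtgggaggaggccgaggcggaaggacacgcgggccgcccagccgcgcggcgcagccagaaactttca
Rbpj: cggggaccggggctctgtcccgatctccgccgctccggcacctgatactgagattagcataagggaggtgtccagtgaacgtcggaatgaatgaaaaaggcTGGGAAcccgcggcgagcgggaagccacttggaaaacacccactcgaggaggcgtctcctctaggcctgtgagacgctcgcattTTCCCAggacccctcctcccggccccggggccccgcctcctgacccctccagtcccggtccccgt
Lfng: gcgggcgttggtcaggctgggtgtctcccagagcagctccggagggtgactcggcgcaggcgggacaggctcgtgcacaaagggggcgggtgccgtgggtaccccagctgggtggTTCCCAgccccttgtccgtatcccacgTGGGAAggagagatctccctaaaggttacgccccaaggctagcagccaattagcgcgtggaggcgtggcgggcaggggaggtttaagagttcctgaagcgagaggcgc
The table of promoter windows held 8 of the 10 genes, and Dtx4 and Hes1 were the 2 without a window. In windows of 300 bases (250 before and 50 after the start), searched on both strands, the motif was found for 2 of the 8 genes, Rbpj and Lfng, beside 28.3% of all 27025 genes with a window. The 8 genes had 9 windows, of which 3 held it, since Rbpj had 2 overlapping windows. It stood at positions -149 and -65 from the start in the window shown for Rbpj and at -135 and -108 in Lfng. Of all 32851 windows of that length 25.6% held it. The motif was thus not seen in these windows of Jag1, Notch1, Notch2, Notch3, Dtx1 or Nrarp.

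Per transcript length, the Deltex gene Dtx1 was by far the most abundant of the 10, with a mean of 394 TPM (length-scaled transcript abundance out of 1000000) over the 16 samples. Lfng, whose product adds sugars to the Notch receptors and changes which ligand they answer to, followed with 130 TPM, then Notch1 with 77.3 TPM, Rbpj with 35.3 TPM and Notch2 with 26.3 TPM. This order from Dtx1 to Notch2 was the same in 16 of 16 samples. Dtx4 had 17.1 TPM and Nrarp 15.2 TPM, and their order was not settled, since Dtx4 exceeded Nrarp in 9 of 16 samples. Jag1 with 2.83 TPM and Hes1 with 2.27 TPM were likewise not separated, with Jag1 higher in 7 of 16 samples. Notch3 was lowest with 0.395 TPM. Of the receptors, Notch1 and Notch2 were thus well expressed, and Notch3 was far below them.

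**Figure D1:**
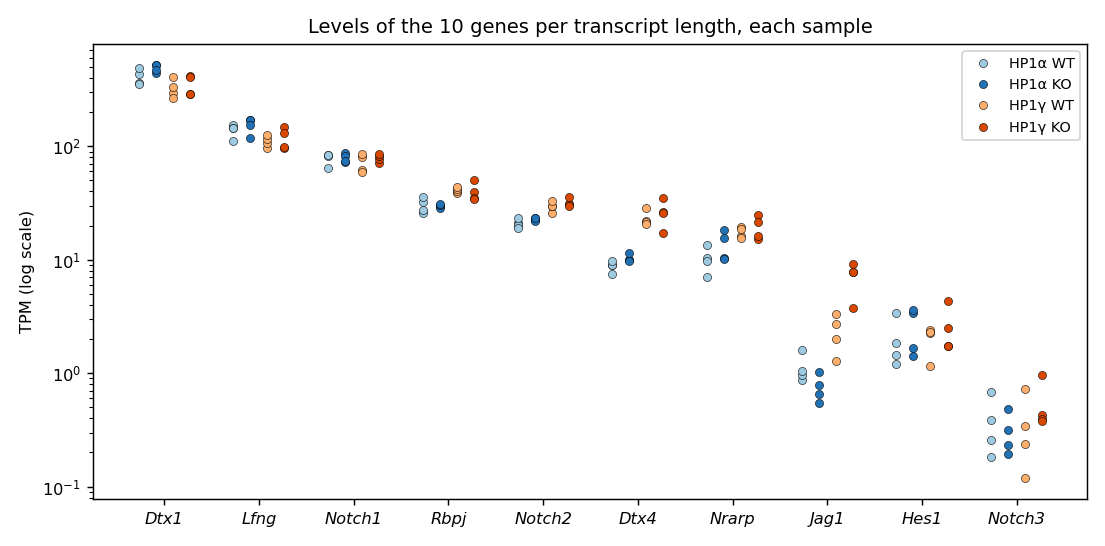
TPM (log axis) of the 10 genes in each of the 16 samples, ordered by mean level from left to right, with colours for the 4 groups. The genes span from a mean of 394 TPM for Dtx1 to 0.395 TPM for Notch3, and Dtx4 has 7.43 to 11.4 TPM in the HP1α line and 17.3 to 35.3 TPM in the HP1γ line.

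Jag1 (ENSMUSG00000027276, GRCm39 chromosome 2, 136923373 to 136958693, minus strand) encodes a ligand that signals to Notch receptors on neighbouring cells. In HP1α KO samples it had 1.25, 1.24, 2.03 and 1.67 CPM, and in their WT littermates 1.88, 1.94, 2.31 and 3.44 CPM. In HP1γ KO samples it had 19.8, 20.5, 21.2 and 9.60 CPM, and in their WT littermates 7.68, 7.85, 4.92 and 3.65 CPM. All 8 samples of the HP1γ line exceeded all 8 of the HP1α line, and within the HP1γ line the 4 KO samples exceeded the 4 WT samples. Per transcript length the lines overlapped for Jag1, with 0.549 to 1.59 TPM in the HP1α line and 1.28 to 9.14 TPM in the HP1γ line. Sample 4 of the HP1γ KO group was the lowest of its group. These values rest on 39 to 109 counts per sample in the HP1α line and on 120 to 648 counts in the HP1γ line.

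In HP1γ KO cells Jag1 was 2.96-fold higher than in WT littermates, a log2 fold change of 1.56 with an SE of 0.293 and a 95% interval of 0.91 to 2.22. Without HP1γ KO replicate 4 the log2 fold change was 1.77, and with the sets of samples 1 and 2 against 3 and 4 as a term it was 1.61. In HP1α KO cells it was 1.54-fold lower than in WT littermates, with a log2 fold change of -0.63, an SE of 0.267 and a 95% interval of -1.22 to -0.03, and the groups overlapped. Without HP1α WT replicate 4, the highest of that group, the log2 fold change was -0.40. The difference between the knockout effects of the lines was -2.18 on the log2 scale with an SE of 0.418 and a 95% interval of -3.06 to -1.30. Between WT cells of the lines Jag1 was 2.52-fold lower in the HP1α line (log2 fold change -1.33, SE 0.286), and between KO cells 11.4-fold lower (log2 fold change -3.51, SE 0.276). These line comparisons share their samples with the knockout comparisons and are not independent of them.

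Dtx4 (ENSMUSG00000039982, GRCm39 chromosome 19, 12443699 to 12479479, minus strand) encodes a Deltex ubiquitin ligase that acts on Notch. It had 32.8, 32.6, 34.1 and 37.1 CPM in HP1α KO samples and 29.6, 28.9, 26.0 and 32.7 CPM in their WT littermates. It had 114, 82.2, 84.1 and 54.3 CPM in HP1γ KO samples and 77.0, 97.4, 68.2 and 68.5 CPM in their WT littermates. The lines did not overlap, but within each line the KO and WT samples did. Sample 4 of the HP1γ KO group, lowest for Jag1, was lowest in its group for Dtx4 too.

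Between WT cells of the lines Dtx4 was 2.66-fold lower in the HP1α line, with a log2 fold change of -1.41, an SE of 0.121 and a 95% interval of -1.68 to -1.14. Between KO cells it was 2.44-fold lower, with a log2 fold change of -1.29 and an SE of 0.179. The knockout itself went with smaller differences in Dtx4. The log2 fold change was 0.22 (SE 0.081, 95% interval 0.04 to 0.40) in HP1α KO cells and 0.11 (SE 0.196, 95% interval -0.32 to 0.55) in HP1γ KO cells. In CPM, Dtx4 thus showed no overlap between the lines, and Jag1 none between the lines nor between the genotypes of the HP1γ line.

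**Figure D2:**
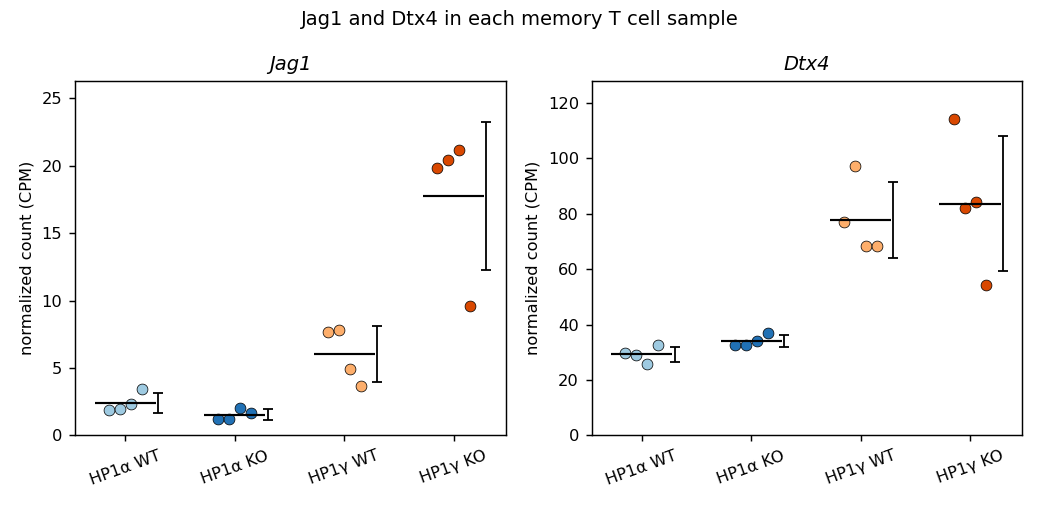
Normalised count (CPM, linear axis from 0) of Jag1 on the left and Dtx4 on the right in the 4 samples of each group, with a line for the mean and a bar for 1 SD to either side. Jag1 runs from 1.24 to 3.44 CPM in the HP1α line and from 3.65 to 21.2 CPM in the HP1γ line, and Dtx4 from 26.0 to 37.1 CPM and from 54.3 to 114 CPM.

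Of the receptors, Notch1, the main receptor of thymocytes, showed no difference beyond the spread of the samples, with 464 ± 40.0 CPM (SD, n = 4) in HP1α line WT cells and 423 ± 63.0 in HP1γ line WT cells. Its log2 fold change was 0.02 (SE 0.076) in HP1α KO and 0.07 (SE 0.104) in HP1γ KO cells, and 0.13 and 0.09 between the lines in WT and KO cells. Notch2, a receptor better known in B cells and dendritic cells, was lower in the HP1α line. It had 131 to 157 CPM in HP1α line WT samples against 183 to 215 CPM in HP1γ line WT samples, and the groups did not overlap (log2 fold change -0.51, SE 0.080). Between KO cells the log2 fold change of Notch2 was -0.42 (SE 0.070), and in the knockout comparisons it was 0.11 and 0.03.

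Notch3, a receptor of immature T cells and of vessel wall cells, was lowly expressed. It had 0.986 to 1.60 CPM in HP1α KO, 0.992 to 1.33 in HP1α line WT, 1.89 to 4.72 in HP1γ KO and 0.648 to 2.34 in HP1γ line WT samples, from 20 to 184 counts. The highest value came from HP1γ KO replicate 4. The log2 fold change of Notch3 in HP1γ KO cells was 0.83 (SE 0.423, 95% interval -0.11 to 1.77) and 0.40 without that sample. Between KO cells of the lines it was -1.10 (SE 0.333), and -0.67 without that sample.

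The 11 dendritic and myeloid markers summed to 199 CPM in this sample, the highest sum of the 16, and 5 of the 11 were highest there within the HP1γ KO group. Siglech, a marker of plasmacytoid dendritic cells, had 110 CPM in HP1γ KO replicate 4 and 25.2 to 37.6 CPM in the other 3 HP1γ KO samples, against 10.8 to 49.3 CPM in HP1γ line WT samples and 10.4 to 18.5 CPM in the HP1α line. Lyz2, a marker of myeloid cells, had 24.9 CPM there, within the 22.9 to 37.3 CPM of its group, and was highest in an HP1α KO sample at 83.1 CPM. Flt3, a dendritic marker of the list, had 19.0 CPM there and 5.68 to 6.75 CPM in the other 3 HP1γ KO samples. Spib, from the B cell list, had 25.8 CPM there and 7.25 to 9.19 CPM in those 3. Of the 11 dendritic and myeloid markers 3 were highest of all 16 samples there. Some markers thus rose in that sample and others did not, and the part of such cells in the values of Notch3, Jag1 and Dtx4 was not tested. In bulk samples such as these, fewer cells of a type and less RNA per cell cannot be told apart.

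Among the proteins that act on the receptors, Lfng had 133 to 167 CPM in HP1α line WT and 114 to 150 CPM in HP1γ line WT samples, with a log2 fold change of 0.27 (SE 0.097). Between KO cells it was 0.45 (SE 0.121). Dtx1, itself a known target of Notch signalling in lymphocytes, had 905 ± 133 CPM in HP1α line WT and 1096 ± 59.9 in HP1α KO cells, a log2 fold change of 0.28 (SE 0.096, 95% interval 0.06 to 0.49), and the groups overlapped. In the HP1γ line it had 739 ± 123 CPM in WT and 773 ± 158 in KO cells (each SD, n = 4). Between KO cells of the lines Dtx1 was 1.42-fold higher in the HP1α line (log2 fold change 0.51, SE 0.124). The Deltex genes therefore went in opposite directions between the lines, with Dtx1 higher and Dtx4 lower in KO cells of the HP1α line.

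Rbpj, the DNA-binding factor through which all Notch receptors act, was 1.37-fold lower in WT cells of the HP1α line (log2 fold change -0.46, SE 0.076), with 81.7 to 102 CPM against 115 to 133 CPM, and the groups did not overlap. Between KO cells its log2 fold change was -0.41 (SE 0.097), and in the knockout comparisons it was -0.09 and -0.12. Nrarp, a feedback inhibitor that Notch induces, had 10.7 to 21.6 CPM in HP1α line WT and 23.7 to 32.4 CPM in HP1γ line WT samples, without overlap, and a log2 fold change of -0.79 (SE 0.183). In KO cells the lines overlapped for Nrarp and the log2 fold change was -0.44 (SE 0.227, 95% interval -0.94 to 0.07). Hes1, a repressor that is the classical Notch target, stayed between 0.760 and 1.98 CPM in all 16 samples, and its log2 fold changes ran from -0.22 to 0.09 with SEs of 0.262 to 0.331. Its 95% interval between WT cells of the lines, -0.95 to 0.50, held the value of Nrarp. At 25 to 68 counts per sample, differences of that size in Hes1 were not detectable.

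**Figure D3:**
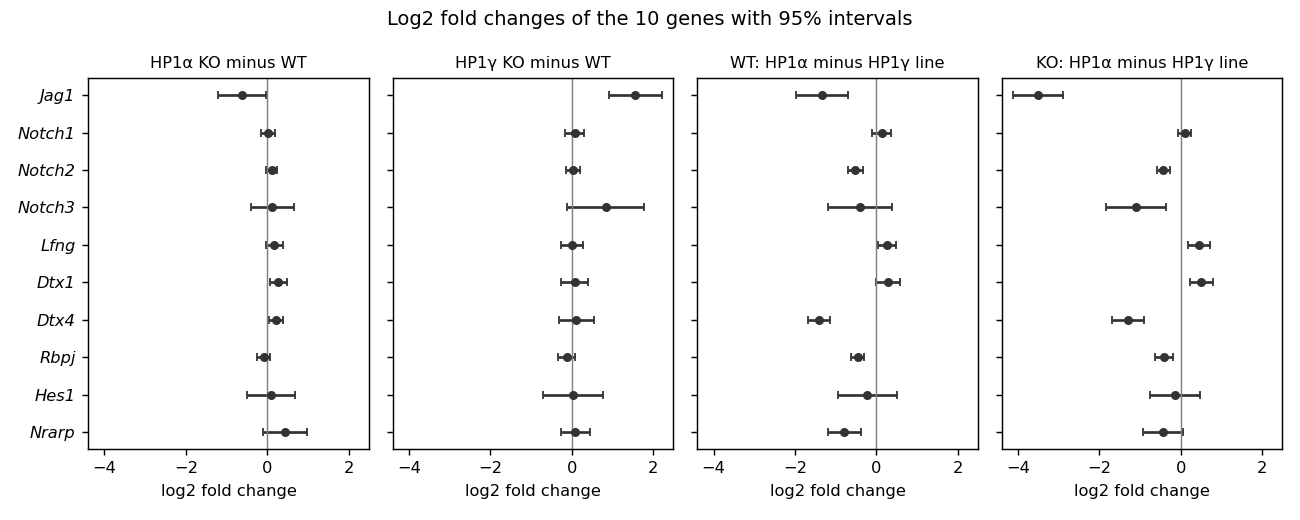
Log2 fold changes of the 10 genes in 4 comparisons, with points for the estimate and bars for the 95% interval of the edgeR fit. In both knockout comparisons all genes but Jag1 and Notch3 lie between -0.12 and 0.43, and in the line comparisons Jag1 (-1.33 and -3.51) and Dtx4 (-1.41 and -1.29) lie farthest to the left.

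Counted against all genes, a gene was called when its edgeR quasi-likelihood test had a Benjamini-Hochberg adjusted p under 0.05 over all genes tested, and 10 of 10 genes passed the filter on low counts in every comparison. Between HP1α KO and WT cells 0 of the 10 were called, as were 0% of the 14881 genes tested. There 3 of the 10 had an unadjusted p under 0.05, beside 4.27% of all genes, 0 of the 10 had groups that did not overlap, beside 2.96%, and DESeq2 called 0 of the 10, beside 0.0186% of its genes. Between HP1γ KO and WT cells 0 of the 10 were called beside 0.327% of 14975 genes. There 1 had an unadjusted p under 0.05, beside 11.9%. Jag1 alone had groups that did not overlap, beside 7.1% of genes that did so in either direction and 3.21% with higher values in KO cells. DESeq2 called 1 of the 10, Jag1, beside 1.64% of its genes.

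Between WT cells of the lines 5 of the 10 (Jag1, Dtx4, Notch2, Rbpj and Nrarp) were called, all lower in the HP1α line, beside 12.8% of 14804 genes called in either direction and 8.25% called lower. The same 5 had groups that did not overlap, beside 19.5% of genes that did so in either direction and 10.7% with lower values. Jag1 and Nrarp lost their call without HP1α WT replicate 1, HP1γ WT replicate 1 or HP1γ WT replicate 2, and 3 of the 10 were then called. Between KO cells 7 of the 10 were called, beside 32.8% of 15020 genes. Of these, 5 were lower (Jag1, Dtx4, Notch2, Notch3 and Rbpj), beside 16.8% of genes, and 2 higher (Dtx1 and Lfng), beside 16% of genes, and 6 of the 10 had groups that did not overlap, beside 32.3%. Notch3 lost its call without HP1α KO replicate 2, 3 or 4 or HP1γ KO replicate 4, the last of which moved its log2 fold change to -0.67, and Lfng without HP1α KO replicate 2 or HP1γ KO replicate 1 or 2. For the difference between the knockout effects 0 of the 10 were called beside 0.0507% of 15776 genes. There 1 had an unadjusted p under 0.05, beside 9.58%, and DESeq2 called 1, Jag1, beside 0.454% of its genes. Since values of these contrasts chose the 10 genes, the shares describe them and support nothing further.

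The rest of the pathway was followed in 78 other genes, of which 67 passed the filter. They are ligands and receptors, Deltex genes, glycosyltransferases, proteases, RBPJ coactivators and corepressors, endocytic regulators, further targets and Notch-responsive genes of T cells. In HP1α KO cells 0 of the 67 were called by edgeR or by DESeq2, beside 0% and 0.0186% of all genes. There 1 of the 67 had an unadjusted p under 0.05, beside 4.27% of all genes. The median log2 fold change was 0.01 beside 0.00 over all genes. The smallest p belonged to Tle3, a Groucho-type corepressor, with a log2 fold change of 0.13 (SE 0.047, edgeR adjusted p = 0.946). In HP1γ KO cells 0 of the 67 were called by edgeR and 1 by DESeq2, beside 0.327% and 1.64% of all genes. There 6 of the 67 had an unadjusted p under 0.05, beside 11.9% of all genes. The median log2 fold change was 0.04 beside 0.00 over all genes. The smallest p-values there belonged to Jag2, the other Jagged ligand gene, with a log2 fold change of 0.52 (SE 0.138, edgeR adjusted p = 0.213), and to the cytokine gene Il4, with -0.85 (SE 0.241, edgeR adjusted p = 0.251). For the difference between the knockout effects 0 of the 67 were called by edgeR or DESeq2, beside 0.0507% and 0.454% of all genes. There 3 of the 67 had an unadjusted p under 0.05, beside 9.58% of all genes. The γ-secretase subunit genes Aph1a (0.23, SE 0.085) and Psenen (0.24, SE 0.092) had the smallest p, each with an edgeR adjusted p of 0.440.

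Between WT cells of the lines 12 of the 67 were called, 1 higher and 11 lower in the HP1α line, which is 17.9% beside 12.8% of all genes. The count was 4 without HP1α WT replicate 1 or without HP1γ WT replicate 1, 6 without HP1α WT replicate 2 or HP1γ WT replicate 2, and 7 without HP1α WT replicate 4. Lower genes included the ligand gene Dll1 (log2 fold change -0.97, SE 0.244, edgeR adjusted p = 0.0300), the protease gene Furin, whose product matures the receptors (-0.79, SE 0.146), and the Mastermind genes Maml1 (-0.63, SE 0.086) and Maml2 (-0.27, SE 0.074). Dll1 was lowly expressed, with 16 to 55 counts per sample over the 16 samples. Among targets, Hey1, a repressor of the Hes family, was 2.14-fold lower (log2 fold change -1.10, SE 0.182, edgeR adjusted p = 0.00655). Il10, an inhibitory cytokine gene, was 2.39-fold lower (-1.26, SE 0.198, edgeR adjusted p = 0.00527) and Cdkn1a, a cell cycle inhibitor gene, 2.29-fold lower (-1.20, SE 0.258, edgeR adjusted p = 0.0173). The xylosyltransferase genes Gxylt1 (-0.35) and Xxylt1 (-0.26) and the corepressor genes Kdm5a (-0.23) and Tle3 (-0.23) fell by less, and Spen, a corepressor that binds RBPJ, was the gene that was higher (0.43, SE 0.120, edgeR adjusted p = 0.0425). The median over the 67 was -0.09 beside 0.02 over all genes.

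Between KO cells 22 of the 67 were called, 7 higher and 15 lower in the HP1α line, and this share of 32.8% equalled the 32.8% of all genes. Of the fringe genes, which act beside Lfng, Mfng (0.47, SE 0.089) and Rfng (0.41, SE 0.085) were both higher. The γ-secretase subunit genes split, with Aph1a (0.20) and Psenen (0.31) higher and Aph1c (-1.27, SE 0.253) lower. Aph1c was lowly expressed, with 39 to 112 counts per sample over the 16 samples against 2141 to 3851 for Aph1a. The ligand gene Dll4 was 3.70-fold lower (log2 fold change -1.89, SE 0.350, edgeR adjusted p = 0.00400). Its highest value, 6.96 CPM, came from HP1γ KO replicate 4. The other HP1γ KO samples had 2.35 to 3.17 CPM of Dll4, and the HP1α KO samples 0.801 to 1.34 CPM. In HP1γ KO replicate 4 the dendritic and myeloid markers had their highest sum, 199 CPM, of which Siglech made up 110 CPM. The part of such cells in the values of Dll4 was not tested. The ubiquitin ligase genes of ligand endocytosis also split, with Mib1 lower (-0.32) and Mib2 higher (0.34). Bcl6, the regulator of follicular helper cells (-0.90, SE 0.168), the corepressor genes Tle1 (-0.87) and Cir1 (-0.53) and the coactivator gene Crebbp (-0.34) were lower, and the target Hes6 was higher (0.35). The comparison of WT cells and that of KO cells share no samples, and 8 genes were called in both with the same sign in 8 of 8: Furin, Maml1, Gxylt1, Kdm5a, Hey1, Il10 and Cdkn1a lower and Spen higher. These are 8 of the 12 genes called in WT cells and 8 of the 22 called in KO cells. Both comparisons set the same lines against each other. The share of all genes called in both, and their signs, were not counted, so the 8 genes are a description only.

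**Figure D4:**
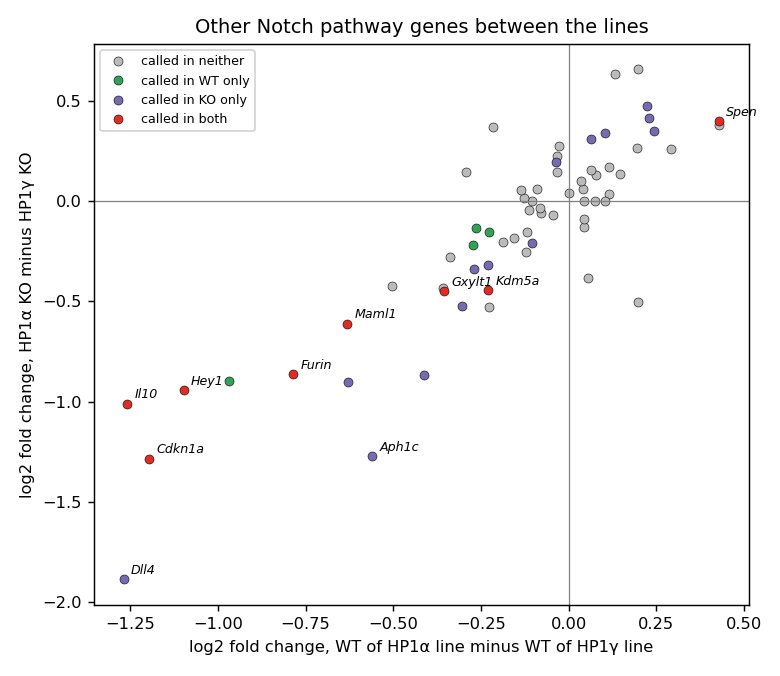
Log2 fold change of the 67 other pathway genes between the lines, in WT cells (horizontal axis) and in KO cells (vertical axis), with colours for the comparison in which a gene was called. The 8 genes called in both lie on the same side of 0 on both axes, from Cdkn1a and Il10 at the lower left to Spen at the upper right.

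Across the 16 samples, the genes whose levels followed Dtx4 most closely among 12532 genes were Bcl2l11 (Pearson r = 0.98, Spearman rho = 0.93), Maml1 (0.97 and 0.91), Rab11fip1 (0.97 and 0.89), Rheb (0.97 and 0.88) and Med26 (0.97 and 0.90). Those closest to Jag1 were Pfkp (0.97 and 0.96), Wipi2 (0.95 and 0.93), Ppp2r2d (0.95 and 0.93), Rb1cc1 (0.95 and 0.95) and 9230114K14Rik (0.95 and 0.89). These values of log2 CPM describe samples that fall into 4 groups of 2 lines, so that r largely carries the group means. With the group means removed, r was 0.87 for Bcl2l11 with Dtx4 and 0.80 for Pfkp with Jag1. Among the genes named it was then lowest for Med26 with Dtx4 (0.69) and for 9230114K14Rik with Jag1 (0.58). Bcl2l11 and Pfkp were chosen by r over all 16 samples, so a line difference in their level follows from that choice. The same choice can also raise r with the group means removed, and differences between the sets of samples within the HP1γ line remain in it. Bcl2l11 had a mean of 51.2 CPM in HP1α KO and 87.1 CPM in HP1γ KO cells, and Pfkp 235 and 409 CPM.

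The genes around Jag1 and Dtx4 were read as well, for both line comparisons. None of the 10 genes lies on the chromosome of Cbx5 or Cbx3. Within 1 Mb of Jag1 3 genes were tested, and 0 were called in WT cells of the lines and 1, Slx4ip (log2 fold change -0.47, edgeR adjusted p = 0.0206), in KO cells. Within 1 Mb of Dtx4 4 of 21 genes were called in WT cells, 3 higher and 1 lower, beside 12.8% of all genes. In KO cells 7 of 20 were called, 5 higher and 2 lower, beside 32.8% of all genes. Mpeg1, separated from Dtx4 by 1049 bases, was lower in KO cells of the HP1α line (log2 fold change -1.62, SE 0.402, edgeR adjusted p = 0.0125). Mpeg1, a gene of phagocytes and dendritic cells, was highest in HP1γ KO replicate 4 at 220 CPM. The other HP1γ KO samples had 62.0 to 66.8 CPM of Mpeg1, and the HP1α KO samples 27.6 to 47.7 CPM.

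Markers were read to check the labelled cell type. All 8 T cell markers were present and summed to between 3931 and 4568 CPM per sample, with 8 of 8 above a median of 1 CPM. Transcripts of the lists for other cells were present at lower levels. The 6 endothelial and stromal markers summed to 115 to 146 CPM per sample, of which Pecam1, which leukocytes also express, made up 110 to 142 CPM. Of these 6 markers 2 had a median above 1 CPM, 0 were at 3 counts or less in all samples, and the stromal markers Col1a2 and Pdgfrb were so in 10 and 13 of the 16. The 12 B cell markers summed to 398 to 573 CPM in HP1α line WT and 315 to 381 CPM in HP1γ line WT samples, 1.27-fold higher on average and without overlap, and to 451 to 793 CPM in HP1α KO and 327 to 452 CPM in HP1γ KO samples. Most of these sums came from Ighm and Cd22. Of the 12 B cell markers 7 had a median above 1 CPM, and of the 11 dendritic and myeloid markers 9 did. The 11 dendritic and myeloid markers summed to 57.2 to 141 CPM in HP1α KO, 49.0 to 113 in HP1α line WT, 83.6 to 199 in HP1γ KO and 42.6 to 122 in HP1γ line WT samples. Over the 16 samples the 5 NK and CD8 markers summed to 56.0 to 97.3 CPM, the 7 Treg markers to 615 to 1114 CPM, the 7 Tfh markers to 427 to 692 CPM and the 6 naive cell markers to 2477 to 3333 CPM. The naive cell markers were 1.13-fold higher in HP1α KO than in WT cells, without overlap. In 32 exact two-sided permutation tests, whose smallest possible p was 0.0286 (n = 4 against 4), no marker sum passed adjustment, and the smallest adjusted p was 0.457. The part of these cells in the differences of Jag1, Dtx4, Notch2 and Rbpj between the lines was not tested.

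**Figure D5:**
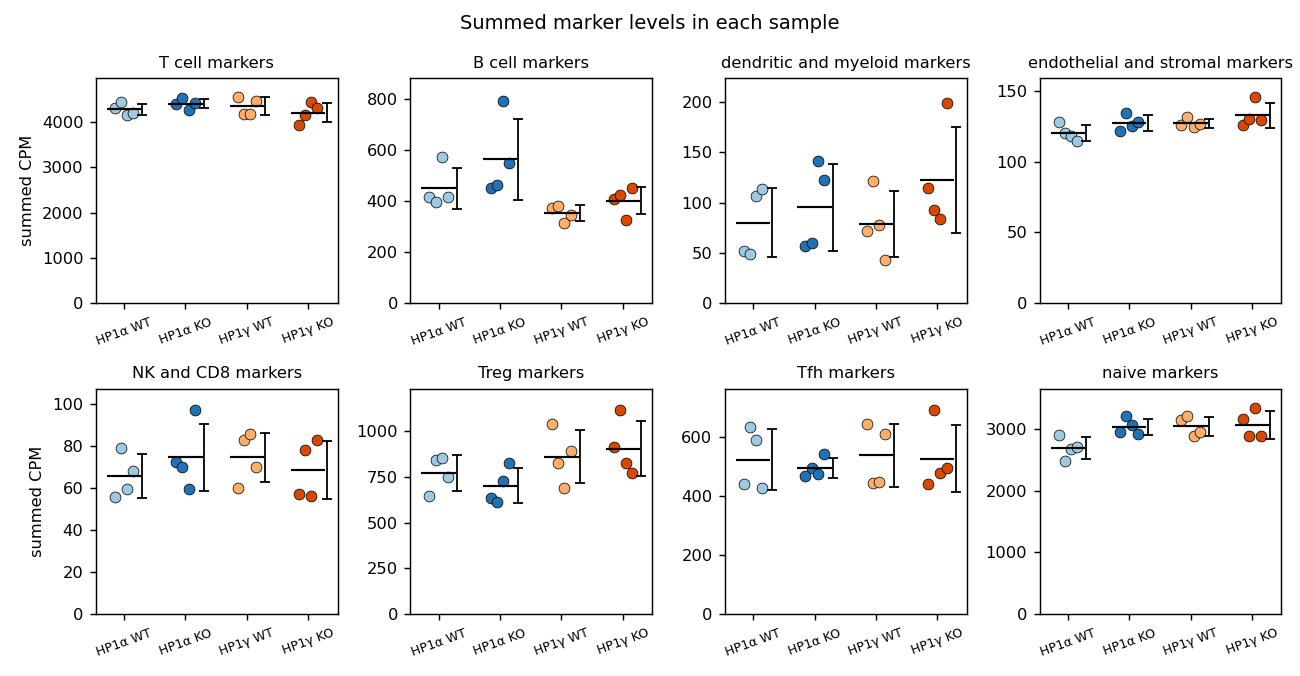
Summed CPM of 8 marker lists in each sample by group, on linear axes from 0, with a line for the mean and a bar for 1 SD to either side. T cell markers lie between 3931 and 4568 CPM, B cell markers average higher in the HP1α line, and 1 HP1γ KO sample stands at 199 CPM for dendritic and myeloid markers.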

How the data were processed

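Memory CD4+ T cell RNA libraries (Illumina Stranded mRNA kit) were processed by the authors with nf-core/RNA-seq: reads were trimmed with Trim Galore, aligned with STAR to GRCm39 (Ensembl annotation) and quantified with Salmon. The authors deposited estimated counts per gene, without normalization (11.6% of values are not whole), and TPM, which the authors scaled per transcript length to 1000000 per sample. TPM keeps no depth and was used for levels and as an alternative. A label of transferred cells did not match the memory cell experiment and was not used. Samples were grouped by their genotype labels.

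Estimated counts were rounded and fitted in R 4.3.3 with edgeR 4.0.16 (TMM, filterByExpr by group, glmQLFit, glmQLFTest, Benjamini-Hochberg over all genes; tested on simulated data). CPM are TMM-normalised over 16 samples. Each comparison used 8 samples, and the difference between knockout effects all 16. Alternatives were DESeq2 1.42.0, RLE size factors, omission of the filter, a minimum of 10 counts per sample, a joint fit of the 16 samples, a replicate block, limma 3.58.1 on log2(TPM + 1) and log2(TPM + 0.1), an absolute log2 fold change above 1, and leaving out each sample. A term for samples 1 and 2 against 3 and 4 in the HP1γ line was added after seeing the data. Marker sums were tested by exact permutation (SciPy 1.17.1). Lists covered T, B, dendritic and myeloid, endothelial and stromal, NK and CD8, Treg, Tfh and naive cells. Coordinates of genes are those of GENCODE (GRCm39).

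The 10 genes and all lists were chosen with earlier results of these data known. Named were the 10 genes, Cbx5 and Cbx3, called pathway genes or else up to 2 with the smallest p, and 5 genes most like Jag1 and Dtx4 among genes with a mean of at least 1 CPM. Neighbours of Jag1 and Dtx4 and single marker genes were named after their values were seen.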

Additional observations from a re-analysis of the deposited data

Results flagged for a closer look

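In groups of 4 samples, 3 of the 40 combinations of gene and group held a sample far from the other 3 (gap to the nearest sample over the range above Dixon's 95% value of 0.829), and chance gives about 1 in 20. HP1γ KO replicate 4 was low for Jag1, at 9.60 CPM, with a gap of 0.885 of the range. The same sample was high for Notch3, at 4.72 CPM, with a gap of 0.906. HP1α KO replicate 4 was low for Hes1, at 0.876 CPM, with a gap of 0.839.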

How the results depend on the processing

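Of the alternatives, 372 of 381 values of counts and sums and 867 of 880 values of single genes stayed within the limits set for a change, and no called value changed direction. Jag1 in HP1γ KO cells was not called with edgeR but was called with DESeq2, without the filter, with all 16 samples in one fit, with the replicate block, with the sets of samples as a term and without HP1γ KO replicate 4, and its log2 fold change ran from 1.27 to 1.77. Between WT cells of the lines Jag1 was not called with limma on TPM, with a log2 fold change of -0.63 on log2(TPM + 1) and -0.96 on log2(TPM + 0.1), nor between KO cells were Notch3, at -0.23 and -0.62, and Lfng, at 0.38 on both scales. Dtx4 was called in both line comparisons under every alternative run. Jag1, Dtx4, Notch3 and Lfng belong to a set chosen with values of these contrasts known. Their calls here therefore show only how far the processing moves a call, and they are no test of a difference. For the other pathway genes, DESeq2 called 1 in HP1γ KO cells. Between WT cells of the lines 12 genes were called, 5 with the replicate block, 3 with an absolute log2 fold change above 1 and 18 with DESeq2, and leaving out each sample gave 4 to 11. Between KO cells of the lines 22 were called, 4 with an absolute log2 fold change above 1, and 20 to 29 with each sample left out. The cause was not tested. Same-numbered samples did not consistently deviate together, with correlations over 0.1 in 3 of 4 numbers in the HP1α line, 2 of 4 in the HP1γ line, 1 of 4 between KO groups and 0 of 4 between WT groups, so the numbers were not taken to pair the samples, although all 4 correlations in the HP1α line were above 0 (0.08 to 0.36). At most 2 of 4 numbers correlated best with their own. In the HP1γ line the best matches stayed within samples 1 and 2 or within 3 and 4. With these sets as a term, chosen after seeing the data, 0.715% of genes were called between HP1γ KO and WT cells in place of 0.327%, Jag1 among them, and 0 pathway genes in both fits. In the KO groups of the lines the block left 22 pathway genes called, but with it Lfng was not called there, nor Jag1 between WT cells. Notch3 and Hes1, with 20 to 184 and 25 to 68 counts per sample, limit what could be seen of low receptors and targets.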
